A study of Mus musculus with 8 samples.

Results

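The genes described here encode the matrix metalloproteinases (Mmp), the Adam and Adamts families of membrane-bound and secreted metalloproteinases, and the tissue inhibitors of metalloproteinases (Timp). They were taken by gene symbol from the array's annotation, which gave 59 probes for 56 genes among 21582 probes. Of these, 47 probes for 44 genes had a computable log2 ratio on at least 3 arrays of each dye orientation and were tested, against 15345 probes of the whole array. The Mmp family had 18 of 20 probes tested, the Timp family 4 of 4, the Adam family 18 of 27 and the Adamts family 7 of 8.

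RNA came from neurospheres, which are balls of neural precursors that grow in suspension, made from mouse cortex at gestational day 12.5. All cultures grew with basic FGF, EGF and LIF and were then differentiated by withdrawing EGF and LIF. Control cultures received no ethanol. Exposed cultures received 320 mg/dl ethanol for 5 days before differentiation and none during the 3 days of differentiation. The 2 RNAs were hybridised together on 8 arrays. Exposed RNA carried Cy3 on replicates 1 to 4 and Cy5 on replicates 5 to 8. The labels name no strain and do not tie any array to a culture of its own, so the arrays may be technical repeats and each p-value speaks only of the variation among them.

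Metalloproteinases cut proteins with a zinc ion in the active site. Mmps and Adamts enzymes act mainly on extracellular matrix, Adams mainly release the outer parts of membrane proteins, and Timps block the active site. In developing brain these enzymes take part in cell migration, process outgrowth, Notch signalling and the turnover of the proteoglycan matrix, and Mmp9 and Mmp2 are the gelatinases most studied there.

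Which RNA or dye was the numerator of the deposited ratios is unknown, so the values below do not tell in which culture a transcript was more abundant. From the median-centred log2 ratios 2 quantities were taken for each probe. The shared part averages the 2 orientation means, and would hold the ethanol effect if the numerator was always the same culture. The turning part is the Cy5-orientation mean minus the Cy3-orientation mean, divided by 2, and holds the ethanol effect if the numerator was always the same dye. In each case the other quantity holds the dye effect. Values are log2 ratios throughout, ± SE of the limma fit for the parts and ± SD for the orientation means, and adjusted p-values come from limma with Benjamini-Hochberg adjustment over all 15345 probes, with a threshold of 0.05. A ratio carries no level for either RNA, so the neural label of the cultures could not be checked by marker levels. Of neural progenitor markers 8 of 8 on the array were tested, of neuronal markers 5 of 7 and of astrocyte markers 6 of 7, and none passed. Their median shared parts were 0.47, 0.42 and -0.84, the last with 5 of 6 below 0, and their median turning parts -0.07, -0.17 and -0.28. The 2 markers farthest from 0 were named after their values were seen. Dcx, a protein of migrating neurons, had a shared part of -1.88 ± 0.46 (adjusted p = 0.180, limma). In the shared part 3 of the 5 tested neuronal markers were above 0, unlike Dcx. Pax6, a transcription factor of cortical progenitors, had on 1 of its 2 tested probes a turning part of 3.82 ± 0.84 (adjusted p = 0.0572, limma). This probe read -4.73, -4.96, 3.04 and -3.40 on replicates 1 to 4 and 7.13, 3.07, 5.57 and 4.75 on replicates 5 to 8. Replicate 3 nearly reached replicate 6, so the orientations barely stood apart. Values of the other Pax6 probe are not given here. In the turning part 6 of the 8 progenitor markers were below 0, unlike this probe.

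Among the members, Mmp9 and Mmp1b differed between the dye orientations, in opposite directions, and no member passed in the shared part. The 2 passing probes are 4.26% of the 47 tested, beside 1.56% of all tested probes in the turning part. Mmp1b was positive there and Mmp9 negative, directions that 0.769% and 0.789% of all tested probes passed in. In the shared part 0 of 47 passed, as did 0% of all tested probes. At an unadjusted p under 0.05 the shared part held 4 members (8.51%), Adam10, Adam2, Mmp12 and Adamts8, beside 13.9% of all probes. The turning part held 7 (14.9%), Mmp9, Mmp1b, Mmp1a, Adam28, Adam23, Adam26a and a probe of Adamts9, beside 13.8%. The member median was -0.25 in the shared part and 0.10 in the turning part, against -0.06 and 0.11 over all tested probes. The shared median was -0.042 without replicate 6 and -0.12 without replicate 8. Positive shared parts were found for 19 of 47 members (40.4%) and 46.1% of all probes, and positive turning parts for 27 (57.4%) and 56.9%. A size of 2-fold or more was reached by 7 members in the shared part (14.9%, beside 15.2% of all) and by 10 in the turning part (21.3%, beside 15.6%). The median SE was 0.52 for members and 0.44 for all probes. A probe that missed the threshold is not thereby shown to be equal in both cultures.

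**Figure D1:**
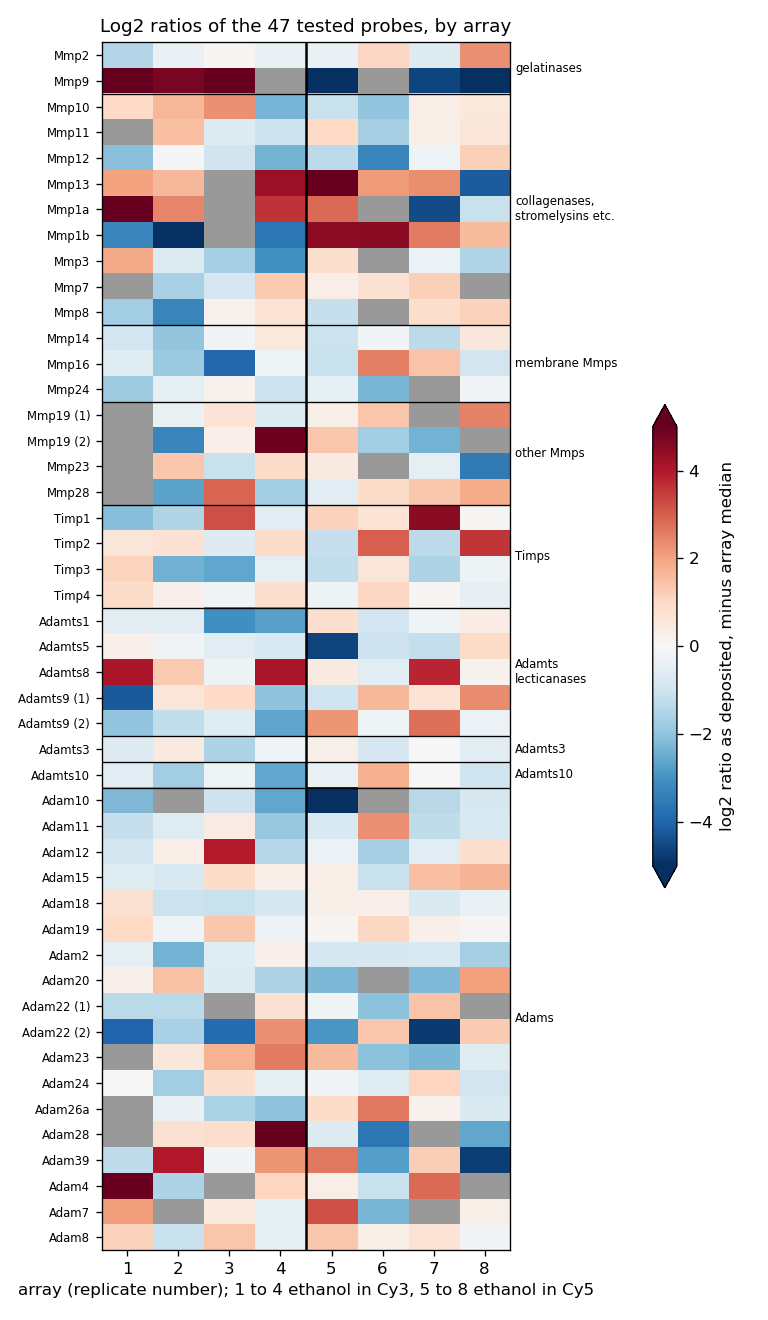
Heat map of the log2 ratio minus the array median for the 47 tested probes (rows, by role) on the 8 arrays (columns), with the colour scale saturating at 5 and grey for ratios that could not be computed. Mmp9 is red on the Cy3 arrays and blue on the Cy5 arrays, Mmp1b the reverse, and Adam10 is blue wherever it has a value.

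**Figure D2:**
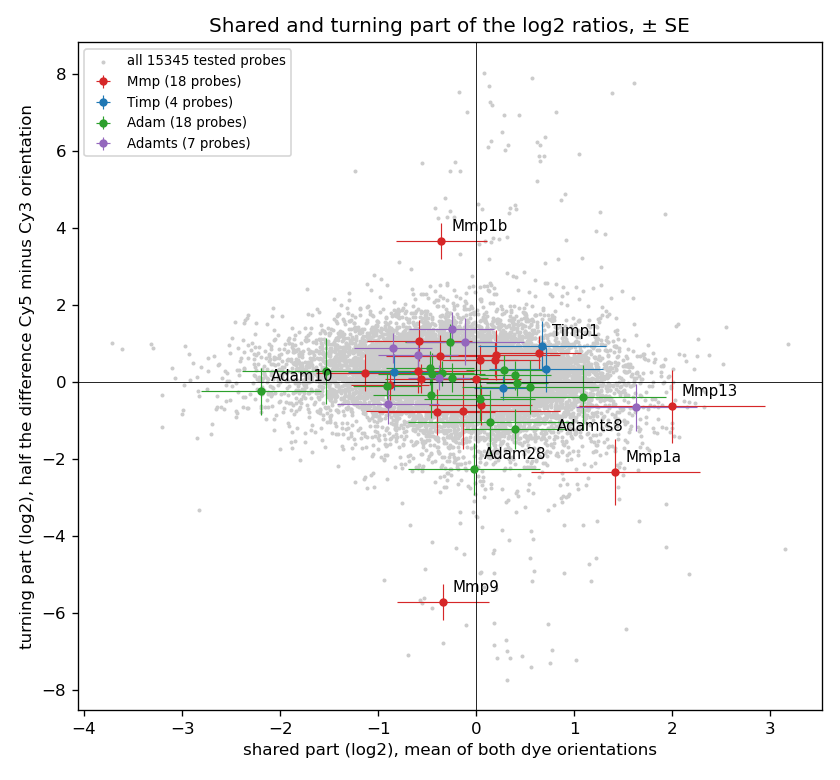
Shared part (x, log2) against turning part (y, log2) for all 15345 tested probes (grey) and the 47 members (coloured by family, bars ± SE). Mmp9 at -5.71 and Mmp1b at 3.64 on the y axis lie apart from the other members, which lie between -2.35 and 1.36.

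Mmp9, or gelatinase B, is a secreted protease that degrades gelatin and basement membrane collagen. With exposed RNA in Cy3 its log2 ratio was 6.18, 4.74 and 5.19 on replicates 1, 2 and 3. With exposed RNA in Cy5 it was -6.06, -4.59 and -7.51 on replicates 5, 7 and 8. The ratio on replicates 4 and 6 was deposited as exactly 0 and was treated as missing. Every computable value was high in 1 orientation and low in the other, with no overlap. The means were 5.37 ± 0.74 (SD, n = 3 arrays) and -6.05 ± 1.46 (SD, n = 3), which gave a turning part of -5.71 ± 0.47 (adjusted p = 0.000373, limma) and a shared part of -0.34 ± 0.47 (adjusted p = 0.775, limma). By size of the turning part, Mmp9 was the 44th of 15345 probes.

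The other gelatinase on the array, Mmp2, which is made as a proenzyme and activated at the cell surface, did not pass in either part. Its log2 ratios were -1.48, -0.34, 0.07 and -0.35 on replicates 1 to 4 and -0.34, 1.05, -0.63 and 2.29 on replicates 5 to 8. The orientations overlapped. The shared part was 0.03 ± 0.39 and the turning part 0.56 ± 0.39 (adjusted p = 0.974 and 0.585, limma), and the turning part was 0.27 without replicate 8.

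Mmp1a and Mmp1b are the mouse counterparts of human interstitial collagenase and lie in a cluster of 10 Mmp genes on chromosome 9, of which 9 were on the array and 8 were tested. In the RefSeq order of the GRCm38.p6 assembly the cluster runs Mmp13, Mmp12, Mmp1b, Mmp3, Mmp1a, Mmp10, Mmp8, Mmp27, Mmp20 and Mmp7. Proximal promoters of this cluster are known for an AP-1 site close to a TATA box, which ties them to growth factor and stress signals. RefSeq promoters, 250 bases before to 50 after each start, were given for 32 of the 56 member genes. The AP-1 letters TGANTCA, which read the same on both strands, were found in 7.81% of all 32851 promoters. The letters TATAAA, searched on both strands, were in 13.6%, and 1.54% of promoters held both. Of 9 cluster genes with a promoter, 8 held both within 110 bases before to 10 after a start, and Mmp8 held TATAAA alone. None of the 4 Timp promoters held the exact letters TGANTCA. Near matches were not searched, and the Timp1 promoter holds a near match, TGAGTAA. A match is a description of the sequence only.

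The windows of Mmp1b and Mmp1a are printed because these close copies had turning parts of opposite sign, and those of Mmp13 and Mmp12 because they had the highest and the lowest shared part of the cluster. Capitals mark the AP-1 and TATAAA letters, which do not overlap. The windows, 120 bases each from RefSeq's GRCm38.p6, are chr9:7388017-7388136 on the minus strand for Mmp1b, and on the plus strand chr9:7464031-7464150 for Mmp1a, chr9:7272404-7272523 for Mmp13 and chr9:7347264-7347383 for Mmp12.
Mmp1b: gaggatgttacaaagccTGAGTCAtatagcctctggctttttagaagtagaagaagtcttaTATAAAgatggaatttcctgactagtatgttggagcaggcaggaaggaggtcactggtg
Mmp1a: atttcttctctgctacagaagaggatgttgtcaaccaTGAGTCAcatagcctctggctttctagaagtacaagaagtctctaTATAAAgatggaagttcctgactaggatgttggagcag
Mmp13: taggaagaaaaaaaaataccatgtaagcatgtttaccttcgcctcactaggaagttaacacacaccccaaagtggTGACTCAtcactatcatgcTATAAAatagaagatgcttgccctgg
Mmp12: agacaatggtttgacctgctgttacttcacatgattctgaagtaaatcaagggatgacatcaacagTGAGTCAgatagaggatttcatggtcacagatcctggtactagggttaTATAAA

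In these windows the AP-1 letters begin 93 bases before the annotated start of Mmp1b, 73 before that of Mmp1a, 35 before that of Mmp13 and 44 before that of Mmp12. The TATAAA of Mmp12 lies past the annotated start used here. Mmp12 and Mmp7 each have another annotated promoter, which held neither the AP-1 letters nor TATAAA. The whole promoters of Mmp1a and Mmp1b shared 74.7% of aligned positions, whereas the other 27 pairs among the 8 promoters shared 49% to 57.9%. The likeness of the 2 promoters stands beside turning parts of opposite sign, of which that of Mmp1b passed and that of Mmp1a did not.

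Mmp1b read -3.30, -5.07 and -3.62 on replicates 1, 2 and 4 with exposed RNA in Cy3. It read 4.48, 4.50, 2.60 and 1.57 on replicates 5 to 8 with exposed RNA in Cy5. All 3 values of the former orientation were low and all 4 of the latter high, and replicate 3 was deposited as 0. The orientation means were -4.0 ± 0.94 (SD, n = 3) and 3.29 ± 1.45 (SD, n = 4). The turning part of 3.64 ± 0.46 passed (adjusted p = 0.00374, limma), and the shared part was -0.36 ± 0.46 (adjusted p = 0.760, limma).

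Mmp1a read 5.24, 2.46 and 3.60 on replicates 1, 2 and 4, and 2.82, -4.49 and -1.11 on replicates 5, 7 and 8. The Cy3 orientation was high on every computable array, and replicate 5 reached into its range. Its turning part of -2.35 ± 0.86 did not pass (adjusted p = 0.281, limma), nor did its shared part of 1.42 ± 0.86 (adjusted p = 0.489, limma). The turning part ran from -3.28 without replicate 5 to -1.46 without replicate 7. Mmp1a and Mmp1b are close copies of each other, and whether either probe also binds the other transcript was not tested, nor was the difference between the 2 probes.

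**Figure D3:**
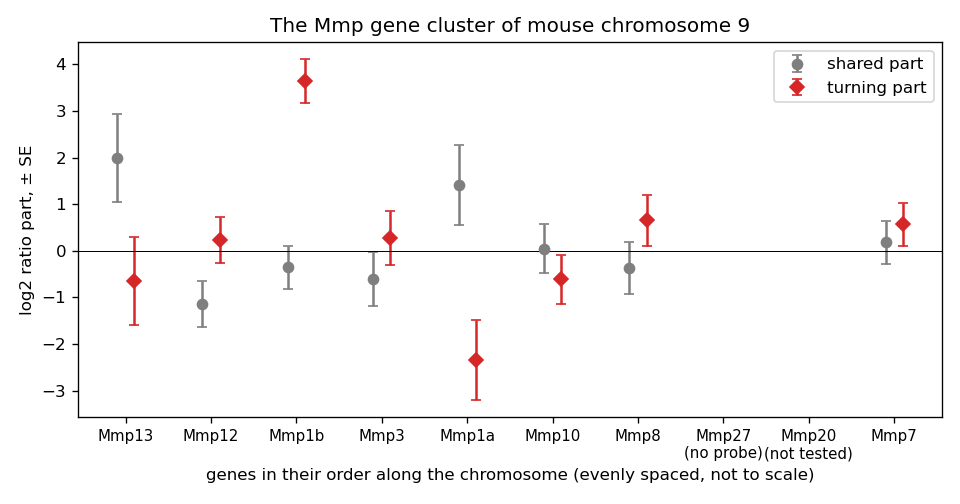
Shared part (grey circles) and turning part (red diamonds) in log2, ± SE, for the Mmp genes of chromosome 9 in their order along the chromosome, evenly spaced. Mmp1b at 3.64 and Mmp1a at -2.35 have turning parts of opposite sign, with Mmp3 at 0.27 between them, and only that of Mmp1b passed.

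The other 6 tested genes of the cluster had turning parts from -0.64 to 0.66. Mmp13, a collagenase, had the highest shared part of any member, 2.00 ± 0.95 (adjusted p = 0.385, limma). It read 2.02, 1.60 and 4.29 on replicates 1, 2 and 4 and 5.12, 2.14, 2.33 and -4.17 on replicates 5 to 8, so 6 of 7 arrays were high and replicate 8 was low. Mmp12, the macrophage elastase, read -2.08, -0.05, -0.99 and -2.37 on replicates 1 to 4 and -1.30, -3.30, -0.21 and 1.19 on replicates 5 to 8. It was low on 7 of 8 arrays, with a shared part of -1.14 ± 0.49 (adjusted p = 0.342, limma), or -0.74 without replicate 6. The stromelysins Mmp3 and Mmp10 had shared parts of -0.60 ± 0.58 and 0.05 ± 0.53. The neutrophil collagenase Mmp8 and the matrilysin Mmp7 had -0.37 ± 0.55 and 0.19 ± 0.46, and Mmp11, a stromelysin outside the cluster, had -0.01 ± 0.46. Mmp20, the enamel protease enamelysin, had a value on 4 arrays and was not tested.

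Membrane-type Mmps are anchored at the cell surface, where Mmp14 activates Mmp2. The 3 tested members all lay below 0 in the shared part, and none passed. Mmp14 read -0.94, -1.97, -0.15 and 0.51 on replicates 1 to 4 and -1.07, -0.14, -1.32 and 0.58 on replicates 5 to 8. Low and high arrays occurred in both orientations, with a shared part of -0.56 ± 0.37 and a turning part of 0.07 ± 0.37 (adjusted p = 0.515 and 0.958, limma). The shared part was -0.34 without replicate 2. Mmp24, a neuronal member, read -1.76, -0.49, 0.17 and -1.08 on replicates 1 to 4 and -0.50, -2.28 and -0.13 on replicates 5, 6 and 8. It was low on 6 of 7 arrays, with a shared part of -0.88 ± 0.40 (adjusted p = 0.370, limma), or -0.55 without replicate 6. Mmp16 had a shared part of -0.58 ± 0.54 and a turning part of 1.06 ± 0.54. Mmp17 was not tested.

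Of the remaining Mmps, Mmp28 had a shared part of 0.20 ± 0.65 and a turning part of 0.70 ± 0.65, and Mmp23 had -0.40 ± 0.60 and -0.78 ± 0.60. The 2 probes of Mmp19 gave turning parts of 0.75 ± 0.42 and -0.76 ± 0.99, of opposite sign and neither passing.

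The 4 inhibitors had a median shared part of 0.47, with 3 of 4 above 0, and a median turning part of 0.28, and none passed. Timp1, the inducible and secreted inhibitor, read -2.14, -1.50, 3.23 and -0.58 on replicates 1 to 4 and 1.14, 0.67, 4.50 and 0.06 on replicates 5 to 8. All 4 Cy5 arrays were above 0 while replicate 3 alone was high in the Cy3 orientation. Its shared part was 0.67 ± 0.65 and its turning part 0.92 ± 0.65 (adjusted p = 0.672 and 0.594, limma). The shared part was 0.093 without replicate 3 and 0.19 without replicate 7, and the turning part 0.61 without replicate 1, 1.5 without replicate 3 and 0.44 without replicate 7.

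Timp2, which blocks Mmp2 and also helps Mmp14 to activate it, read 0.62, 0.71, -0.66 and 0.90 on replicates 1 to 4. On replicates 5 to 8 it read -1.15, 3.00, -1.32 and 3.57. The Cy5 arrays split into 2 high and 2 low, and the shared part was 0.71 ± 0.58 (adjusted p = 0.605, limma), or 0.28 without replicate 8 and 1.10 without replicate 7.

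Timp3, the inhibitor bound to matrix that also blocks Adam17 and Adamts enzymes, was the member of this family below 0. It read 1.13, -2.41, -2.60 and -0.45 on replicates 1 to 4 and -1.22, 0.62, -1.55 and -0.24 on replicates 5 to 8, low on 6 of 8 arrays. The shared part was -0.84 ± 0.47 (adjusted p = 0.448, limma). Timp4 read 0.92, 0.24, -0.18 and 0.80 on replicates 1 to 4 and -0.26, 1.04, 0.07 and -0.42 on replicates 5 to 8. It varied little, with parts of 0.28 ± 0.30 and -0.17 ± 0.30, and a shared part of 0.12 without replicate 6.

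**Figure D4:**
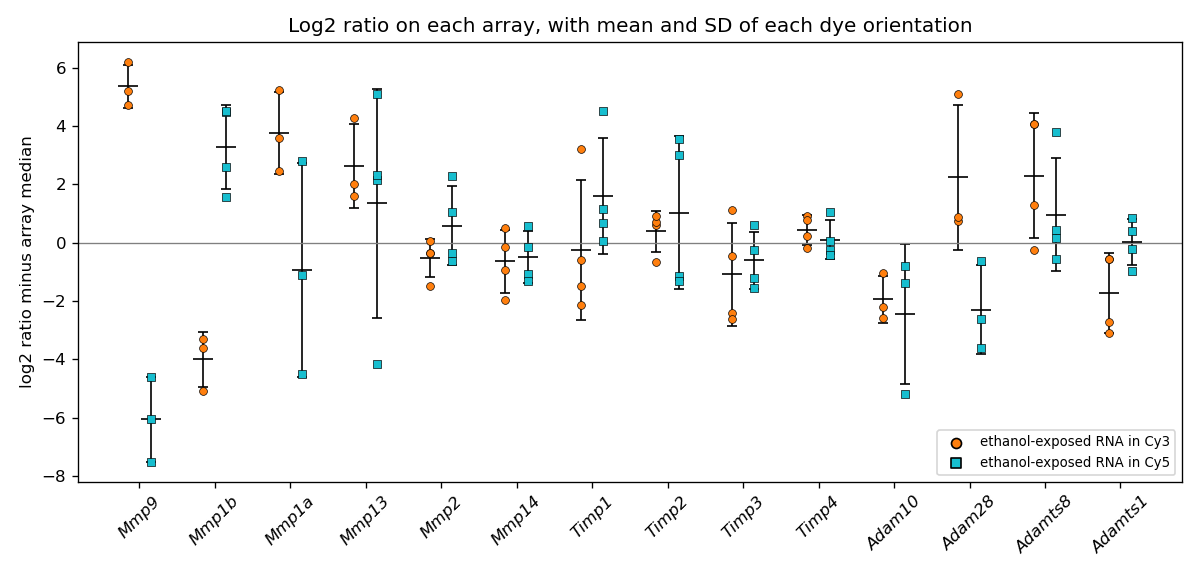
Log2 ratio minus the array median on each array for 14 members, with circles for exposed RNA in Cy3, squares for exposed RNA in Cy5, and the mean ± SD of each orientation. The orientations stand apart for Mmp9, Mmp1b and Adam28 and overlap for the other 11 genes shown.

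Adams split into proteolytically active enzymes, neural members that lack the active site and bind ligands, and members of the reproductive tract. Adam10, a sheddase that cuts Notch receptors and the amyloid precursor protein, had the lowest shared part of any member. It read -2.19, -1.04 and -2.59 on replicates 1, 3 and 4, and -5.19, -1.37 and -0.78 on replicates 5, 7 and 8. It was low on all 6 arrays with a value and was the 1 member of 47 (2.13%) with 1 sign on every array that had a value, against 3.57% of all tested probes, or 1.75% with a negative sign. The shared part of -2.19 ± 0.61 did not pass (adjusted p = 0.231, limma). Replicate 5 was its lowest value, and without that array the shared part was -1.51. Adam17, the sheddase of tumour necrosis factor and of EGF receptor ligands, had a value on 3 arrays and was not tested. It read -0.22 on replicate 3, 3.19 on replicate 5 and 0.77 on replicate 6.

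Other active Adams had shared parts that did not pass. These were 0.39 ± 0.37 for Adam8, a sheddase of myeloid cells, 0.29 ± 0.39 for Adam15 and 0.41 ± 0.32 for Adam19, a meltrin. The median absolute shared part over all tested probes was 0.44. Adam12, also a meltrin, had 0.03 ± 0.57, with arrays from -1.67 to 3.95. Adam28, which occurs in lymphocytes and in the epididymis, read 0.74, 0.87 and 5.11 on replicates 2, 3 and 4 and -0.64, -3.62 and -2.61 on replicates 5, 6 and 8. The orientations did not overlap, and the turning part of -2.27 ± 0.68 did not pass (adjusted p = 0.182, limma). Non-overlap held for 4 members (8.51%), Mmp9, Mmp1b, Adam28 and a probe of Adamts9, beside 10.9% of all tested probes. Adam9 and Adam33 were not tested.

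The neural Adams without proteolytic activity are Adam11, Adam22 and Adam23, of which Adam22 and Adam23 bind the secreted Lgi proteins at synapses. Adam23 read 0.57, 1.72 and 2.60 on replicates 2 to 4 and 1.58, -2.04, -2.30 and -0.62 on replicates 5 to 8. Replicate 5 alone of the Cy5 arrays was high, and the turning part was -1.24 ± 0.52 (adjusted p = 0.332, limma). Adam22 was below 0 in the shared part on both its probes, at -1.53 ± 0.86 and -0.45 ± 0.54, and Adam11 read -0.47 ± 0.45. None of these passed.

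Of the Adams known from the reproductive tract, Adam2, a sperm surface protein also called fertilin beta, was low on 7 of 8 arrays. It read -0.45, -2.37, -0.61 and 0.24 on replicates 1 to 4 and -0.86, -0.78, -0.75 and -1.68 on replicates 5 to 8, with a shared part of -0.91 ± 0.35 (adjusted p = 0.297, limma). Adam26a read -0.32, -1.59 and -2.02 on replicates 2 to 4 and 0.91, 2.64, 0.23 and -0.72 on replicates 5 to 8. The orientations overlapped through replicate 8, and its turning part was 1.04 ± 0.45 (adjusted p = 0.357, limma). Adam4, Adam7, Adam18, Adam20, Adam24 and Adam39 had shared parts from -0.46 to 1.09 and turning parts from -1.05 to 0.21. Adam1a, Adam3, Adam5, Adam21, Adam25 and Adam30 were not tested.

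Adamts enzymes are secreted, and the lecticanases among them cut the proteoglycans of brain matrix. The 7 tested Adamts probes were for 6 genes, with 2 probes of Adamts9. In the turning part their median was 0.68, against 0.11 over all tested probes, and 5 of 7 were above 0, beside 56.9% of all. In the shared part it was -0.38, against -0.06, and 1 of 7 was above 0, beside 46.1% of all. No probe of the family passed. Adamts1, a lecticanase that also restrains angiogenesis, read -0.55, -0.54, -3.08 and -2.70 on replicates 1 to 4 and 0.86, -0.97, -0.20 and 0.39 on replicates 5 to 8. The Cy3 arrays were all below 0, and the parts were -0.85 ± 0.40 shared and 0.87 ± 0.40 turning (adjusted p = 0.376 and 0.374, limma). The 2 probes of Adamts9 gave turning parts of 1.36 ± 0.44 and 1.04 ± 0.60 (adjusted p = 0.192 and 0.491, limma). The first read -1.96, -1.23, -0.59 and -2.65 on replicates 1 to 4 and 2.20, -0.22, 2.76 and -0.30 on replicates 5 to 8, with no overlap.

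Adamts8 was the lecticanase above 0 in the shared part. It read 4.08, 1.31, -0.26 and 4.08 on replicates 1 to 4 and 0.45, -0.55, 3.80 and 0.17 on replicates 5 to 8, positive on 6 of 8 arrays. The shared part was 1.63 ± 0.61 (adjusted p = 0.292, limma). Adamts5, or aggrecanase-2, lies next to Adamts1 on chromosome 16 and had parts of -0.90 ± 0.52 shared and -0.58 ± 0.52 turning. The procollagen N-proteinase Adamts3 had parts of -0.38 ± 0.32 and 0.10 ± 0.32, and Adamts10 had -0.59 ± 0.40 and 0.68 ± 0.40. Adamts7 was not tested.

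Related genes outside the 4 families were followed through lists, with 1 probe per gene. No list gene passed in the shared part. Of proteases that activate these enzymes and of the plasmin cascade, 1 of 11 tested genes passed in the turning part, where 1.56% of all tested probes did. It was St14, the membrane serine protease matriptase, at -7.14 ± 0.36 (adjusted p = 3.41e-06, limma). It read 6.76 to 8.42 on the 4 Cy3 arrays and -8.10 to -5.56 on the 4 Cy5 arrays. Plau, urokinase, the activator of plasminogen, read 0.36, 4.69, 2.41 and 2.13 on replicates 1 to 4 and -4.04, -1.80 and -2.26 on replicates 6 to 8. Its orientations did not overlap, and the turning part of -2.55 ± 0.53 did not pass (adjusted p = 0.0553, limma). The list's median turning part was -0.40.

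The list of Adam10 and Adam17 partners and proteases that cut within the membrane also held Bace1 and Bace2. Of its 10 tested genes 1 passed in the turning part, beside the same 1.56% of all tested probes. A single call in lists this short is no result about the list. Rhbdf1, or iRhom1, which carries Adam17 through the secretory pathway, read 1.93, 1.02, 2.00 and 3.12 on replicates 1 to 4 and -1.34, -5.06, -1.60 and -2.20 on replicates 5 to 8. High and low arrays followed the orientation without overlap, and the turning part was -2.28 ± 0.45 (adjusted p = 0.0359, limma). The gamma-secretase subunit Psenen had a shared part of 1.01 ± 0.36 and did not pass (adjusted p = 0.268, limma).

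The other inhibitors and inducers had 5 tested genes, 0 of them above 0 in the shared part, beside 46.1% of all tested probes. Their shared parts ran from -1.51 to -0.13 with a median of -0.97, and none passed. Spock2 of this list was represented by 1 of its 2 tested probes. Reck, a membrane-anchored inhibitor of Mmp2, Mmp9, Mmp14 and Adam10, read -2.0, -0.17, -1.32 and -0.89 on replicates 1 to 4 and -5.19, -1.40, -1.30 and 0.21 on replicates 5 to 8. It was low on all arrays but replicate 8, with a shared part of -1.51 ± 0.53 (adjusted p = 0.265, limma). Among 18 tested shed substrates and 14 tested matrix substrates none passed in either part. Bcan, the brain proteoglycan brevican that lecticanases cut, was nearest in the turning part, at -3.08 ± 0.60 (adjusted p = 0.0532, limma). A list of 15 tested genes, made of other zinc metalloproteinases and Adamts-like (Adamtsl) genes, had medians of -0.03 shared and 0.06 turning. None of them passed.

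Mmp9 is also made by microglia, macrophages and endothelial cells. Of microglia and macrophage markers 6 of 9 on the array were tested, with a median turning part of 0.57 and 5 of 6 above 0. Of endothelial and mural markers 8 of 10 were tested, with a median of 0.03 and 5 of 8 above 0. Their lowest was Cdh5, the cadherin of endothelial junctions, named after its values were seen. It read 0.85, 1.72 and 1.25 on replicates 2 to 4 and -1.09, -2.86 and -1.28 on replicates 5, 6 and 8, without overlap and with the sign of Mmp9. The turning part of Cdh5, -1.51 ± 0.39, did not pass (adjusted p = 0.128, limma). Other markers had the opposite sign. Flt1 of the same list had a turning part of 0.93 ± 0.38 (adjusted p = 0.309, limma). C1qa of the microglia and macrophage list had 1.39 ± 0.38 without overlap (adjusted p = 0.124, limma). Meningeal fibroblast markers, of which 3 of 7 were tested, had a median of -0.07. No marker of these lists passed in either part, and their part in the Mmp9 values was not tested.

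Between 75.4% and 87.1% of all probes on an array had a computable ratio, and 71.2% to 89.8% of the 59 members did. Replicate 1 had the fewest in both cases. Over the members 79 of 472 values were exactly 0 and 5 were at the array's highest value, and both kinds were treated as missing. None was at the lowest ratio that the deposited rounding holds.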

How the data were processed

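The series holds 8 two-colour arrays. The authors deposited 1 log2 ratio per probe and array. The background correction, normalization and direction of these ratios were not given in the sources used here. Exact 0 and each array's highest value were treated as missing, since from the values they were taken to be placeholders. An array held exact 0 on 2565 to 5200 probes, while 66 to 117 computable values lay within 0.01 of 0. In each array the low values step as rounded ratios do, and the highest value recurs on 108 to 464 probes. Medians of computable values ran from -0.435 to -0.324 on the Cy3 arrays and from 0.023 to 0.516 on the Cy5 arrays, and arrays were centred on them. The centring thus takes out of the turning part a shift that follows the orientation.

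Probes with a value on 3 or more arrays of each orientation were fitted with limma 3.58.1 in R 4.3.3 (lmFit, eBayes) with a shared and a turning coefficient, checked on simulated arrays. The number of arrays limits the precision. Gene names are those of GEO's platform table and can be outdated. The symbols of all 59 members were the same when updated by Entrez number. No protein sequences were used, so the Adams were grouped by textbook knowledge.

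Array values are given for members past the threshold, the 8 with the smallest p in each part, and the Timps, Mmp2, Mmp9, Mmp14, Adam10 and Adam17. Of the lists, genes past the threshold and up to 3 with the smallest p are named. The members and lists were chosen with earlier results of these data known. Marker lists also covered oligodendrocyte lineage and erythroid cells, with median turning parts of 0.35 and 0.34 and no gene passing. Arrays that share a code number across orientations (3, 5 and 1r) did not deviate together: the correlations of their deviations from the orientation means were 0.016, -0.035 and 0.040.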

Additional observations from a re-analysis of the deposited data

Results flagged for a closer look

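The orientations differed by the limma fit for Mmp9, with a turning part of -5.71, and for Mmp1b, with 3.64.

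Among 62 sets of 4 arrays of 1 orientation, 2 held an array far from the other 3 by Dixon's criterion, which chance gives in about 1 of 20 sets. For Adam11 it was replicate 6 at 2.30, while the remaining Cy5 arrays lay between -1.27 and -0.749. For Adam2 it was replicate 8 at -1.68, with the remaining Cy5 arrays between -0.864 and -0.747.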

How the results depend on the processing

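The calls of Mmp9 and Mmp1b in the turning part were kept under the 18 alternatives that gave these probes a value. Turning parts ran from -6.08 to -4.35 (adjusted p 0.000363 to 0.0375, limma) and from 3.10 to 4.02 (adjusted p 0.00199 to 0.0364, limma). For Mmp1b the adjusted p of 0.0364 came with exact 0 kept, against 0.00374 in the main fit (limma). With the mean over probes of a gene 2 members passed. With only probes that had a value on all 8 arrays 0 members passed, since Mmp9 and Mmp1b have missing values. Leaving out single arrays, 2 members passed each time. No other named member passed under any alternative.

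Over all probes the turning count of 239 became 417 with the values as deposited, where 74.8% were positive against 49.4%, 84 without the r arrays (replicates 3, 4 and 8), and 144 to 192 without single arrays (155 without replicate 4 or 6, 144 without replicate 8). The values as deposited moved the median turning part of all probes from 0.11 to 0.42. In the shared part 1 probe, no member, passed with the highest values kept. The member median of the shared part was -0.027 with exact 0 kept and -0.29 to -0.042 without single arrays. That of the turning part was 0.42 as deposited and 0.0049 to 0.15 without single arrays. The Adam family's median turning part turned from -0.08 to 0.24 as deposited. With the replicate block (array code number) 242 probes and 2 members passed.

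Of 29 named values 7 changed sign under some alternative, and none of these passed under any. As deposited, the turning part of Adam10 became 0.059, that of Timp4 0.149 and the shared part of Mmp2 -0.014. With array weights the turning part of Mmp14 became -0.029 and the shared part of Mmp2 -0.020. Without the r arrays the shared parts of Mmp2 and Mmp9 became -0.44 and 0.069, and the turning parts of Timp2 and Timp3 -0.24 and -0.037. Without single arrays the turning part ran from -0.67 to 0.43 for Adam10 (0.43 without replicate 5), from -0.15 to 0.27 for Mmp14 (negative without replicates 2 and 8), from -0.11 to 0.71 for Timp2 (negative without replicates 6 and 8) and from -0.010 to 0.61 for Timp3 (negative without replicate 3). The shared part ran from -0.25 to 0.24 for Mmp2 (negative without replicates 3, 6 and 8) and from -0.71 to 0.024 for Mmp9 (positive without replicate 8). The cause was not tested.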
